A study of Mus musculus with 10 samples.

Results

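The open chromatin of Piezo1 knockout and GFP control C3H10 T1/2 cells was compared through 28724 merged autosomal regions, built from the ATAC-seq peak lists of 4 of the series' 10 libraries. The regions were made by joining peaks of any of the 4 libraries that overlapped by at least 1 bp on the 19 autosomes, and a library had a region if at least 1 of its peaks fell inside. C3H10 T1/2, the parent of both groups, is a fibroblast-like mesenchymal line from mouse embryo. The control cells are labelled GFP (replicates 1 and 2), and the knockout cells, labelled CPK, carry a CRISPR/Cas9 knockout of Piezo1 (replicates 1 and 2). Each library came from nuclei of 50000 cells treated with Tn5 transposase by the Omni-ATAC procedure. The labels do not say whether the knockout cells are 1 clone or a pool, nor whether replicates came from separate cultures, so a clone, a batch and the knockout cannot be told apart. The other 6 libraries were RNA-seq of cells of this line with no stated edit, static or under cyclic strain.

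PIEZO1 is a large ion channel of the plasma membrane that opens when the membrane is stretched and lets calcium enter the cell. In cells of the skeletal lineage, calcium entry through mechanically gated channels is known to act through calcineurin and NFAT, YAP and TAZ, and AP-1 transcription factors, which bind DNA at promoters and at distant enhancers. ATAC-seq maps the stretches of DNA that are free enough of nucleosomes for Tn5 to insert, which are mostly active promoters and enhancers.

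The 120 bases before a gene start are given for genes whose start region differed between the groups, to show what such promoters look like, and for Piezo1 as the targeted gene. They come from RefSeq, GRCm38.p6 (the mm10 build), read 5′ to 3′ on the gene's strand. For each class the first 2 genes in the order of the named regions were taken whose most upstream start in the table has at least 100 of these bases inside the region. Capitals mark GC boxes (GGGCGG) and CCAAT boxes (CCAAT), searched on both strands, so that CCGCCC and ATTGG are the same motifs on the other strand. The first pair had a peak in both control libraries and neither knockout library.
D6Wsu163e, chr6:126939846-126939965, plus strand: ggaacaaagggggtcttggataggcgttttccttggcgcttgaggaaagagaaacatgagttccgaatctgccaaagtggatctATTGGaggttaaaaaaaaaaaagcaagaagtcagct
Rasgef1b, chr5:99252928-99253047, minus strand: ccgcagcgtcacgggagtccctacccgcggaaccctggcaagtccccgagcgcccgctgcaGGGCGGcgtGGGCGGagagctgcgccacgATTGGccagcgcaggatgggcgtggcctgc
The next pair had a peak in both knockout libraries and neither control library. Rps7 encodes a protein of the small ribosomal subunit.
Rps7, chr12:28635954-28636073, minus strand: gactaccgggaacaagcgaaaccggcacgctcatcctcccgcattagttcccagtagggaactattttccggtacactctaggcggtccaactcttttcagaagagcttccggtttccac
Paxbp1, chr16:91044380-91044499, minus strand: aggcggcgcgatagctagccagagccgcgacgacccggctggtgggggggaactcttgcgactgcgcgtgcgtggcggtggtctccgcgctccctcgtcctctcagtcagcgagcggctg
Spsb4 and Ran, the GTPase of nuclear transport, had a peak in all 4 libraries that ranked lower in the knockout.
Spsb4, chr9:97018356-97018475, minus strand: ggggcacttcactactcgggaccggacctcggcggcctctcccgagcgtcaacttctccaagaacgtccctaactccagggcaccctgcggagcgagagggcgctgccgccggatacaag
Ran, chr5:129020036-129020155, plus strand: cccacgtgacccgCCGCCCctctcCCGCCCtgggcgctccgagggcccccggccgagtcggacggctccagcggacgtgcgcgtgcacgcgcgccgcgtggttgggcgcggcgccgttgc
Tufm, the mitochondrial translation elongation factor Tu, and Sap30, a subunit of the Sin3 histone deacetylase complex, had a peak in all 4 libraries that ranked higher in the knockout.
Tufm, chr7:126487235-126487354, plus strand: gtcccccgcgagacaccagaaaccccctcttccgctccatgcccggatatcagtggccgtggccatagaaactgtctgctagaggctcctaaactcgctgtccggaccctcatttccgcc
Sap30, chr8:57487861-57487980, minus strand: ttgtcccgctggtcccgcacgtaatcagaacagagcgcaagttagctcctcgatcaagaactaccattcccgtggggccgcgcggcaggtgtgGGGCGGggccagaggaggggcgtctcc
Piezo1 had a peak at its start in 3 of the 4 libraries.
Piezo1, chr8:122551330-122551449, minus strand: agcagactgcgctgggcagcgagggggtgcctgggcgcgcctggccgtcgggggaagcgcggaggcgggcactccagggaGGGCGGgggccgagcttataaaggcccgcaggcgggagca

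The autosomal lists held 15693 peaks in GFP replicate 1 and 26131 in GFP replicate 2, against 15814 and 13477 in knockout replicates 1 and 2. GFP replicate 2 stood apart: 35.2% of its regions had no peak in any other library, against 6.42% in GFP replicate 1, 13.4% in knockout replicate 1 and 6.86% in knockout replicate 2. The main counts that rest on the presence of a peak are therefore also given with the 13477 strongest peaks of each library. Counts by distance, chromosome, gene, gene list or neighbourhood, and with a library left out, use all peaks and were not matched for peak number. Read depth is unknown from peak lists, so the absence of a peak means that none was called, and it cannot be told apart from a shallower library. The lists carry no test between groups, and 2 libraries against 2 cannot give an exact two-sided permutation p below 0.333. The differences between the groups are therefore set beside the 2 other ways of pairing the libraries: both replicates 1 against both replicates 2, and, crossed, GFP replicate 1 with knockout replicate 2 against GFP replicate 2 with knockout replicate 1.

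The cell type label was checked against markers. Of 12 fibroblast markers, 11 had a peak within 1000 bases of their start in at least 1 library and 7 in all 4, among them Pdgfrb, Vim, Snai2 and Col1a1, and Prrx2 had none. Of the markers of other cell types, Spi1 (blood) and Tek (endothelium) had such a peak in GFP replicate 2, and the 6 epithelial, 6 neural, 5 pluripotent and 4 muscle markers had none in any library. Over all 20665 autosomal protein-coding genes, 27.4% had such a peak in all 4 libraries and 55.1% had none.

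Piezo1 lies at chr8:122481698-122551329 on the minus strand. The region at its start, chr8:122550949-122551642, had enrichments (the authors' fold of a peak over its local background) of 3.80 in GFP replicate 1, 5.41 in GFP replicate 2 and 4.52 in knockout replicate 2, and no peak in knockout replicate 1. A region 4764 bases upstream of the start, chr8:122556093-122557078, had peaks in all 4 libraries, with enrichments of 4.36 and 7.17 in the control and 4.69 and 7.03 in the knockout. At neither place did the groups separate. The lists do not show the edited bases, so peaks at Piezo1 do not check the knockout.

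Far more regions were marked by a peak in the control cells alone than in the knockout cells alone. Of the 28724 regions, 2986 (10.4%) had a peak in both control libraries and neither knockout library, and 457 (1.59%) had a peak in both knockout libraries and neither control library. They are called control-only and knockout-only regions here. With replicates 1 set against replicates 2 the same counts were 87 (0.303%) and 740 (2.58%), and in the crossed pairing 45 (0.157%) and 1213 (4.22%). In both other pairings the larger count belonged to the pair that held GFP replicate 2. The control-only count was thus above the highest count of the other pairings, and the knockout-only count was not.

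**Figure D1:**
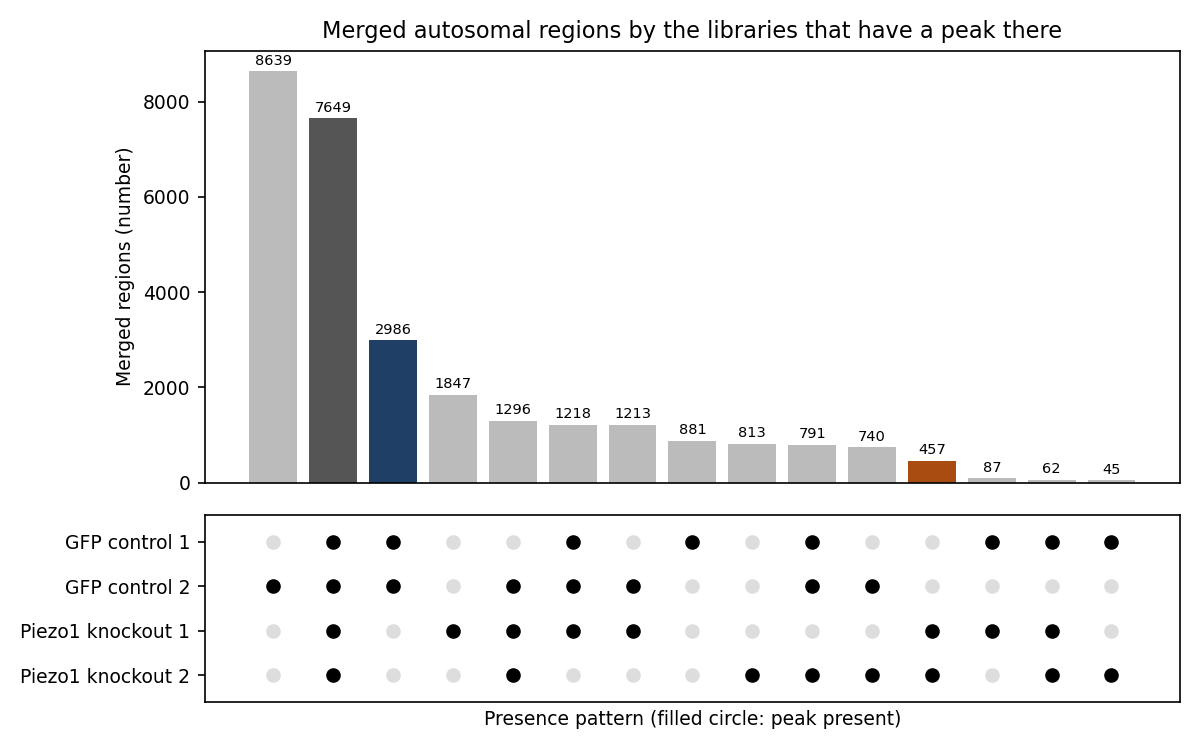
Bars give the number of merged autosomal regions with each presence pattern, and filled circles under a bar mark the libraries with a peak. The largest bar, 8639 regions, is GFP replicate 2 alone, followed by 7649 regions in all 4 libraries and 2986 control-only regions (blue), while 457 regions were knockout-only (orange).

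With the same number of peaks from each library, 1586 of 20021 regions were control-only and 995 were knockout-only, and the other pairings gave 225 and 461, and 267 and 383. Both counts then lay above those of the other pairings, and control-only regions still outnumbered knockout-only ones. Without GFP replicate 2, 4409 regions had a peak in GFP replicate 1 and neither knockout library, and 1855 had one in both knockout libraries and not in GFP replicate 1. Without GFP replicate 1 these counts were 11980 and 524. Control-only regions outnumbered knockout-only regions on 19 of 19 autosomes.

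**Figure D2:**
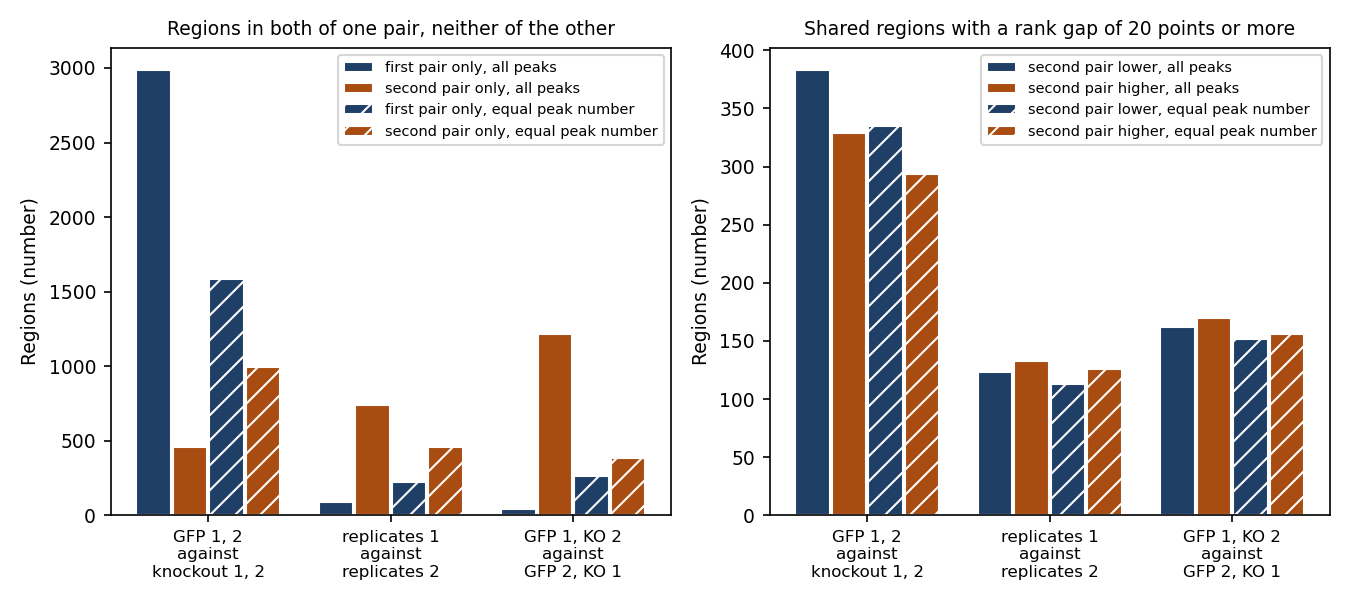
Left, numbers of regions with a peak in both libraries of one pair and neither of the other, and right, numbers of shared regions with a rank gap of 20 points or more, for the 3 pairings, with all peaks (plain) and with 13477 peaks from each library (hatched). With equal peak numbers the control and knockout pairing gave 1586 and 995 regions, above the 225 to 461 of the other pairings.

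Control-only regions lay mostly away from gene starts. Of the 2986, 668 (22.4%, Wilson 95% interval 20.9% to 23.9%) were within 1000 bases of a gene start, and their median distance to one was 12118.5 bases. Of the 457 knockout-only regions 128 (28.0%, 24.1% to 32.3%) were at a gene start, with a median distance of 7962 bases. Regions in all 4 libraries were at a gene start in 5098 of 7649 cases (66.6%), and 11790 of all 28724 regions were. With replicates 1 set against replicates 2, the shares were 49.4% of the 87 regions of the first pair only and 62.8% of the 740 of the second. In the crossed pairing they were 60% of 45 and 43.0% of 1213. These intervals cover counting error only, and peaks near each other are not independent. With equal peak numbers the shares at a gene start were 18.9% for control-only and 41.9% for knockout-only regions, so the 2 classes were close in position with all peaks and apart with equal numbers.

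Seen from the other side, 5.67% of all regions at gene starts were control-only, 12.2% of those between 1 and 10 kilobases away, 13.4% between 10 and 50 kilobases, and 16.8% beyond 50 kilobases. The knockout-only share was between 1.09% and 2.32% in the same distance classes, with no steady order. Over all 16934 regions farther than 1000 bases from a start, 2318 (13.7%) were control-only and 329 (1.94%) knockout-only. Each whole list showed the same order of groups: regions at gene starts made up 50.4% of the regions of GFP replicate 1 and 43.4% of GFP replicate 2, against 53.2% and 61.1% in knockout replicates 1 and 2. The mean was 46.9% ± 4.98 (SD, n = 2) in the control and 57.2% ± 5.54 (SD, n = 2) in the knockout, a difference of 10.2 points, and the exact two-sided permutation p of 0.333 is the smallest this design allows. Without GFP replicate 2 the difference was 6.71 points and without knockout replicate 2 it was 6.31 points. With equal peak numbers the shares were 52.9% and 53.6% against 56.5% and 61.0%.

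Among the 7649 regions present in all 4 libraries, the enrichment of each was turned into a percentile within its library, with 100 for the strongest. A region was called when the 2 libraries of one group both lay at least 20 percentile points from both libraries of the other. The knockout ranked higher in 329 (4.3%) and lower in 383 (5.01%). The other pairings gave 133 (1.74%) higher and 123 (1.61%) lower for replicates 2 against replicates 1, and 170 (2.22%) and 162 (2.12%) for the crossed pairing. Calls between control and knockout were thus more numerous in both directions than in either other pairing. With percentiles over all merged regions, a region without a peak being tied at the bottom, the calls were 73 higher and 24 lower, so the balance between the directions depends on that choice. A library with fewer regions has more tied at the bottom, which by construction places its own regions at higher percentiles. GFP replicates 1 and 2 had 13719 and 24532 regions, and knockout replicates 1 and 2 had 13829 and 11853. The region just inside the threshold had a gap of 20.01 points and the one just outside 19.99 points.

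The libraries also ranked shared regions more alike within than between groups. Across the 7649 regions, Spearman's rho was 0.673 between the control libraries and 0.672 between the knockout libraries, against 0.549 to 0.601 between a control and a knockout library. All share the same regions, so this is a description. With equal peak numbers, regions in both libraries made up 62.0% of those in either for the control pair and 58.9% for the knockout pair, and 48.9% to 53.3% for the mixed pairs.

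The rank calls split by position. Of shared regions farther than 1000 bases from a gene start, 9.68% ranked lower in the knockout and 4.23% higher, and at gene starts 2.67% ranked lower and 4.34% higher. The share that ranked lower was 7.10% between 1 and 10 kilobases, 10.1% between 10 and 50 kilobases and 14.6% beyond 50 kilobases. In the other pairings 1.14% to 2.23% of the far regions were called in either direction. With percentiles over all merged regions 0.745% of far regions ranked lower and 1.57% higher, against 0.0981% and 0.647% at gene starts, so that the lower calls no longer outnumbered the higher ones among far regions. That ranking depends on the number of regions in each library, as described above. Leaving out GFP replicate 1, GFP replicate 2, knockout replicate 1 or knockout replicate 2, the lower share was 15.5%, 18.2%, 17.1% and 17.0% of far regions and 7.47%, 8.14%, 6.89% and 7.88% of those at gene starts. Far regions ranked lower more often than gene-start regions on 19 of 19 autosomes. Among regions beyond 50 kilobases the median percentile was 55.5 in GFP replicate 1 and 53.5 in GFP replicate 2, against 42.9 and 39.4 in knockout replicates 1 and 2. At gene starts the medians were 52.3 and 53.1 against 55.4 and 57.2. Control and knockout libraries did not overlap in either class, in opposite directions; percentiles within a library must balance, so a fall in one class raises others.

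**Figure D3:**
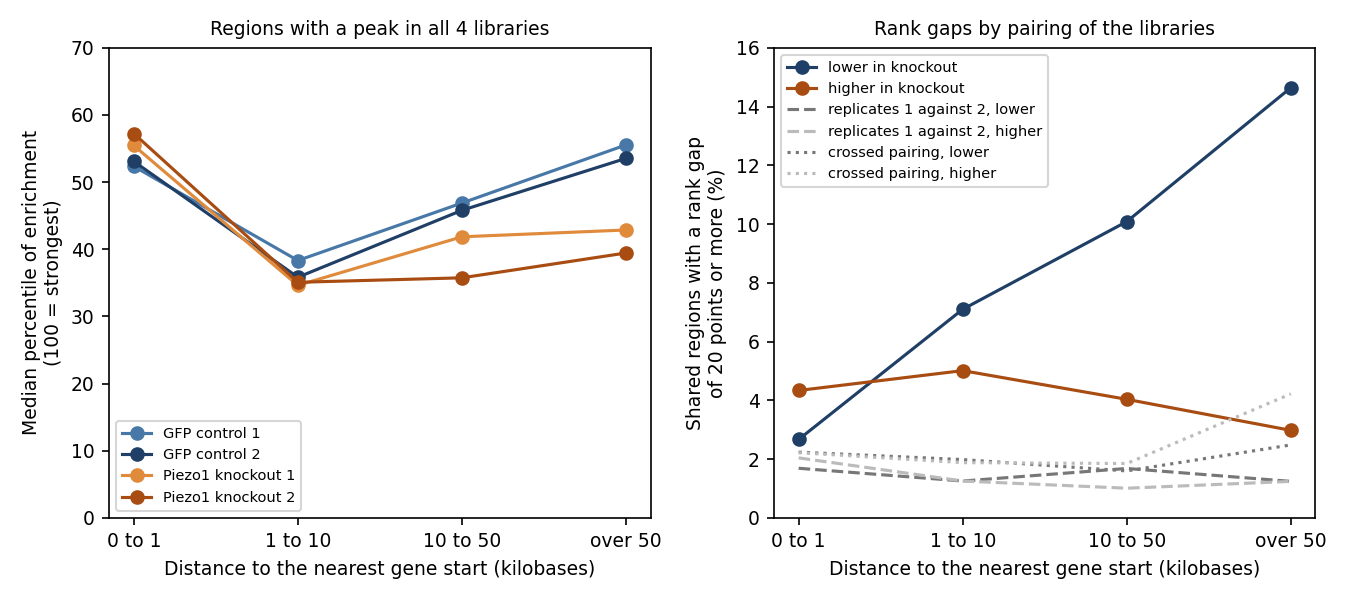
Left, the median percentile of enrichment of regions shared by all 4 libraries against their distance to the nearest gene start, 1 line per library. Right, the percentage of shared regions with a rank gap of 20 points or more; the share lower in the knockout rises from 2.67% at gene starts to 14.6% beyond 50 kilobases, and grey lines give the other pairings.

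The strongest control-only regions at gene starts, ordered by the lower of their 2 percentiles within each library's own list, included those of Uhmk1, Zfp945, Rnf6, D6Wsu163e and Slc7a12. The region at Uhmk1, a protein kinase gene, chr1:170214995-170215354, had enrichments of 6.83 and 8.62 in GFP replicates 1 and 2. These put it at the 86.0th and 93.9th percentiles of the lists, and no knockout library had a peak there. The region at an end of Slc7a12, an amino acid transporter gene, chr3:14505766-14506464, had 6.23 and 9.49. Rnf6, a ubiquitin ligase gene (6.83 and 8.28), also had strong control peaks and none in the knockout. At Rasgef1b the control enrichments were 5.90 and 6.80.

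Farther from a start the first control-only regions included the following. The region chr4:105580932-105581698, whose nearest protein-coding start is that of Plpp3, a lipid phosphate phosphatase gene, at 423585 bases, had enrichments of 8.88 and 12 in the control. The region chr11:110880849-110881717, 86316 bases from Kcnj16 (an inward rectifier potassium channel gene), had 9.75 and 10.4. A region 9177 bases from Nudt9 had 9.50 and 10.6, and a region 8201 bases from an end of Trp63, which encodes the transcription factor p63, had 7.89 and 9.86. These lay between the 95.2nd and the 99.9th percentile of the control lists. The nearest start names a place and does not show which gene a region acts on.

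Over all control-only regions the median percentile within a library's own list was 33.8 in GFP replicate 1 and 50.3 in GFP replicate 2, and over all knockout-only regions 34.3 and 28.7 in knockout replicates 1 and 2. At gene starts the first knockout-only region was that of Rps7, chr12:28635973-28636246, with enrichments of 6.57 and 6.29 in knockout replicates 1 and 2. Sdhaf3, an assembly factor of succinate dehydrogenase, had 6.26 and 6.00. Paxbp1 had 6.14 and 5.89, Aqr, a spliceosomal RNA helicase gene, 5.63 and 5.72, and Ift74, an intraflagellar transport gene, 5.63 and 8.00. Far from starts the first was chr16:57927750-57928762, 173013 bases from Col8a1, a collagen gene, with 7.69 and 7.79, at the 90.4th and 93.0th percentiles. Others lay 164848 bases from Gli3, a transcription factor of Hedgehog signalling (6.57 and 6.86), and 110508 bases from Cxcl12, a chemokine gene (6.47 and 7.44). None of these had a peak in a control library.

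Of the shared regions that ranked lower in the knockout, the largest gap at a gene start was at Poc1a, a centriole gene. Its region chr9:106281014-106281325 had enrichments of 7.52 and 10.1 in the control and 4.89 and 4.86 in the knockout, a gap of 63.8 percentile points. A region at an end of Lrp6, which encodes a co-receptor for Wnt ligands, had 8.91 and 10.1 against 5.63 and 5.43, a gap of 54.8 points. At Spsb4 the values were 6.12 and 7.64 against 4.19 and 4.31. In each of these the lowest control percentile was above the highest knockout percentile by more than 50 points. Farther from starts the largest gap was 73.2 points, at chr10:67002950-67003789, 5400 bases from an end of Reep3, with 7.59 and 8.43 against 4.32 and 3.95. Regions near Vangl1, a planar cell polarity gene, Ptprk, a receptor phosphatase, Tspan14 and Alox5ap, a gene of leukotriene synthesis, had gaps between 61.9 and 63.4 points.

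Of those that ranked higher, Tufm had the largest gap at a gene start. The region chr7:126486951-126487603 had enrichments of 4.19 and 5.74 in the control and 7.71 and 7.42 in the knockout, a gap of 62.2 points. Sap30 had 4.52 and 6.03 against 8.60 and 7.59. A region at an end of Rbm8a, which encodes a subunit of the exon junction complex, had 5.05 and 6.16 against 8.14 and 7.72. At these genes a region ranked in the lower part of the shared regions in the control libraries and in the upper part in the knockout libraries. Farther from starts a region 213054 bases from Zswim6, chr13:107676243-107677010, had 4.61 and 5.33 against 8.21 and 8.57, a gap of 73.5 points. A region 28187 bases from an end of Ccl2, a chemokine gene, had 4.63 and 4.40 against 7.38 and 6.94. A region 7172 bases from Timp2, which encodes an inhibitor of matrix metalloproteinases, had 4.38 and 4.56 against 7.57 and 6.40.

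Counted by gene, 5665 of 20665 autosomal protein-coding genes (27.4%) had a peak within 1000 bases of a start in all 4 libraries, 391 (1.89%) in both control and neither knockout library, and 60 (0.29%) in both knockout and neither control library, while 11388 had none. A gene of the control group here may have its 2 peaks in different regions. Of 5505 genes with a shared region at a start, the strongest one ranked higher in the knockout for 245 (4.45%) and lower for 129 (2.34%). None of the 14 lists of pathway and housekeeping genes in the plot of gene starts, nor the fibroblast list, had a knockout-only member. The lists held at most 3 control-only members each.

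**Figure D4:**
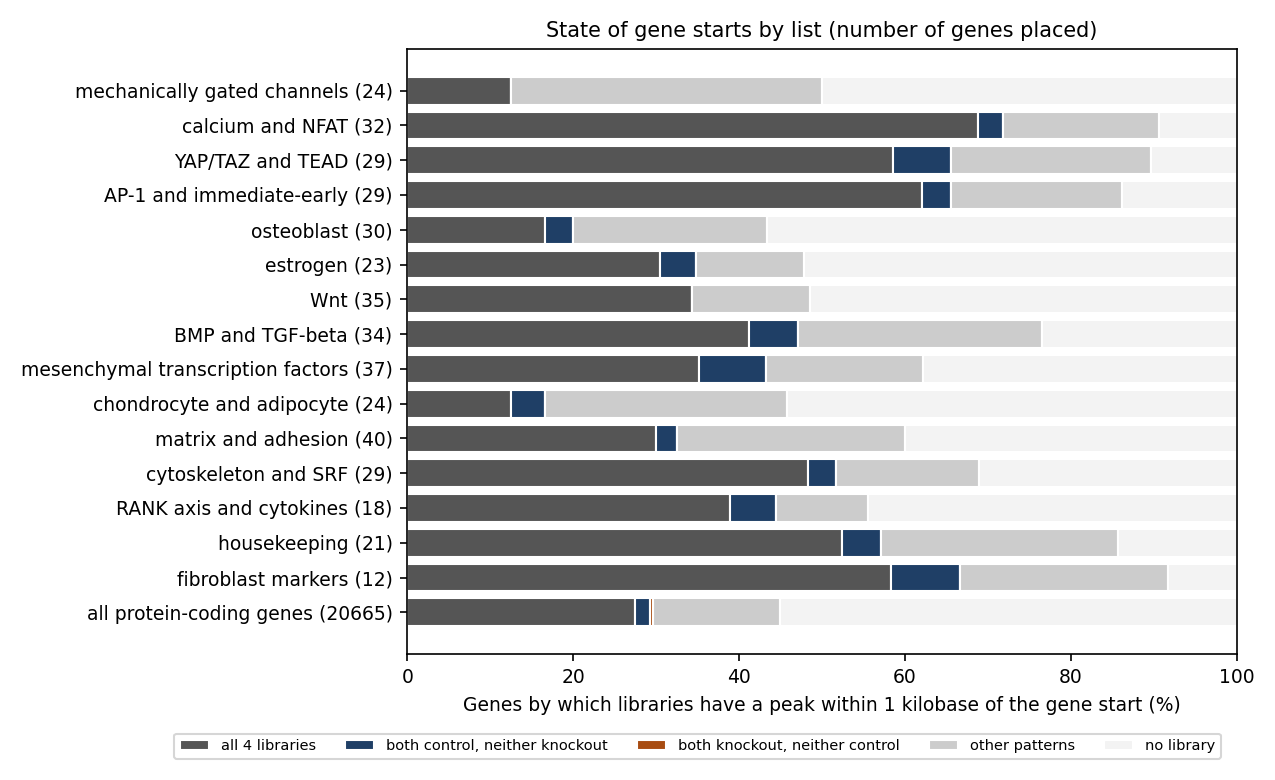
Bars split the genes of each list, and all 20665 protein-coding genes, by the libraries that have a peak within 1 kilobase of a start, in percent of the genes placed. The share with a peak in all 4 libraries (dark grey) was 68.8% for calcium and NFAT, 62.1% for AP-1 and 58.6% for YAP/TAZ genes, against 27.4% of all genes, and no list holds an orange, knockout-only part.

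Of 24 mechanically gated channel genes, 3 had a peak at the start in all 4 libraries: Trpm7 and Pkd1, which encode a channel kinase and polycystin, and Tmem87a. None was control-only, knockout-only or rank-called at its start, and Piezo2 and Trpv4 had no peak there in any library. Farther away, 5 regions lay nearest to Piezo2 and 4 nearest to Trpv4.

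Of 32 genes of calcium entry and NFAT, 22 had a shared peak, 2 of which ranked lower and 2 higher in the knockout. Over all 5505 genes with a shared region at a start, 2.34% ranked lower and 4.45% higher. Values here are percentiles among the shared regions of each library. Ppp3cb, a catalytic subunit of calcineurin, lay at 96.8 and 86.1 in GFP replicates 1 and 2 and at 59.4 and 61.9 in knockout replicates 1 and 2. Mef2a, a calcium-responsive transcription factor gene, lay at 70.9 and 98.5 against 45.8 and 47.0. In the other direction Nfat5, whose product responds to hypertonic stress, lay at 1.95 and 37.2 against 76.2 and 67.9, and Camkk2, a calmodulin-dependent kinase kinase gene, at 3.13 and 10.8 against 68.7 and 36.2. The 4 genes thus moved both ways, with the groups apart in each. Camk1 had a control peak in each replicate, in different regions.

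Of 29 YAP/TAZ and TEAD genes placed, 17 had a shared peak, 1 ranked lower and 2 were control-only. For comparison, 2.34% of all genes with a shared region at a start ranked lower, and 1.89% of all genes were control-only. Stk3, which encodes the Hippo kinase MST2, lay at the percentiles 58.6 and 29.99 in the control and 5.80 and 4.19 in the knockout. The control-only peaks were weak, with enrichments of 3.94 and 3.71 at Tead3, a DNA-binding partner of YAP, and 3.95 and 4.23 at Tgfb2, a growth factor gene, at or below the 17.4th percentile of their lists. The targets Ccn2 and F3 had a peak in all 4 libraries and no rank call.

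Of 29 AP-1 and immediate-early genes, 18 had a shared peak, among them Fos, Jun, Junb, Jund, Fosl2 and Egr1. Nr4a2, an orphan nuclear receptor gene, lay at the percentiles 62.7 and 32.7 in the control and 2.35 and 4.71 in the knockout. Klf2, a shear stress responsive transcription factor gene, lay at 89.6 in both control libraries against 63.4 and 43.6. Both ranked lower in the knockout, and no member ranked higher. Over all 5505 genes with a shared region at a start, 2.34% ranked lower and 4.45% higher, so 18 genes are too few to set the list apart. Myc, placed by both ends, had a control peak in each replicate in different regions and none in the knockout. The peak in GFP replicate 1 was among the weakest, with an enrichment of 3.07 at percentile 0.2 of its list.

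Of 30 osteoblast genes placed, 5 had a peak at the start in all 4 libraries (Dlx5, Col1a1, Ank, Cbfb and Tnfrsf11b, which encodes osteoprotegerin) and 17 had none, including Sp7 and Alpl. Dlx5, Col1a1 and Tnfrsf11b were placed by both ends, so their peaks may lie at the far end. Runx2, the master regulator of osteoblast fate, had a peak in both control libraries and knockout replicate 2. Omd, which encodes osteomodulin, was control-only, with enrichments of 4.57 and 4.69. Of 23 estrogen genes placed, the receptors Esr1, Esr2 and Gper1 had no peak at the start in any library, and Ncoa3, a coactivator of nuclear receptors, was control-only with 4.92 and 4.74. In neither list was a shared peak rank-called. For genes at whose start no library had a peak these lists give no comparison.

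Members of the other lists are named here after their values were seen. Twist1, Foxc2 and Nfib, transcription factor genes of mesenchyme, were control-only, with enrichments of 5.38 and 4.44, 4.06 and 3.44, and 4.09 and 4.01. So were Bmpr1a, a BMP receptor gene (5.60 and 5.33), and Scx, a transcription factor gene of tendon (4.05 and 4.09). At Twist1, Bmpr1a and Scx the region was 1 of 2 at the gene's start. Among shared regions Tnc, which encodes the matrix protein tenascin C, ranked lower, at the percentiles 49.3 and 84 in the control and 20.9 and 14.0 in the knockout. So did the strongest at Lmna, which encodes the lamins A and C of the nuclear envelope, at 92.5 and 81.7 against 53.3 and 52.4. Of the 2 shared regions nearest to Lmna, 1 ranked lower and 1 higher. Foxc1 ranked higher, at 13.5 and 10.1 against 37.4 and 42.4, and so did Ebf1, at 21.5 and 17.9 against 71.4 and 45.7. The housekeeping genes Tbp (31.3 and 39.8 against 76.4 and 75.8) and Polr2a (15.8 and 39.2 against 60.1 and 63.4) ranked higher as well.

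Regions away from starts, assigned to the nearest protein-coding start, were counted for the same lists. Around matrix and adhesion genes 39 of 183 regions were control-only and 0 knockout-only, around BMP and TGF-beta genes 25 and 2 of 124, and around mesenchymal transcription factor genes 27 and 1 of 157. Around AP-1 genes the counts were 13 and 5 of 122, and around chondrocyte and adipocyte genes 9 and 5 of 87. Around YAP/TAZ and TEAD genes they were 7 and 1 of 93, around Wnt genes 10 and 1 of 105, around calcium and NFAT genes 12 and 0 of 68, around osteoblast genes 12 and 1 of 62, and around mechanically gated channel genes 1 and 1 of 24. Beside the 13.7% and 1.94% over all far regions, the control-only share ran from 4.17% for channel, 7.53% for YAP/TAZ and 9.52% for Wnt genes to 19.4% for osteoblast, 20.2% for BMP and TGF-beta and 21.3% for matrix genes, so the lists lay on both sides of it. The lists were not tested against other genes.

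Peaks were also distributed unevenly over chromosomes between the groups. Chromosome 1 held 7.33% of the autosomal peaks in both control libraries against 5.56% and 5.07% in the knockout, and chromosome 15 held 6.02% and 5.44% against 4.43% and 4.53%, whereas chromosome 8 held 4.87% and 5.16% against 6.29% and 6.40% and chromosome 16 held 3.35% and 3.45% against 4.36% and 4.40%. The X chromosome, which the regions leave out, held 1.78% and 1.95% of all peaks in the control and 1.04% and 0.977% in the knockout. The largest gap between the nearest libraries of the 2 groups was 1.76 points for any autosome, against 0.145 points with both replicates 1 set against both replicates 2 and 0.173 points in the crossed pairing. Single replicates of a group differed by up to 0.5998 points in the control, on chromosome 17, and 0.540 points in the knockout, on chromosome 7. On chromosome 18, 17 of 214 shared regions ranked lower in the knockout and 1 higher. The part of chromosome number in these shares was not tested. Without chromosomes 1, 8, 15, 16 and 18, a choice made after seeing these values, 2135 of 21538 regions were control-only and 337 knockout-only, and 9.36% of far and 2.58% of gene-start shared regions ranked lower in the knockout.

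**Figure D5:**
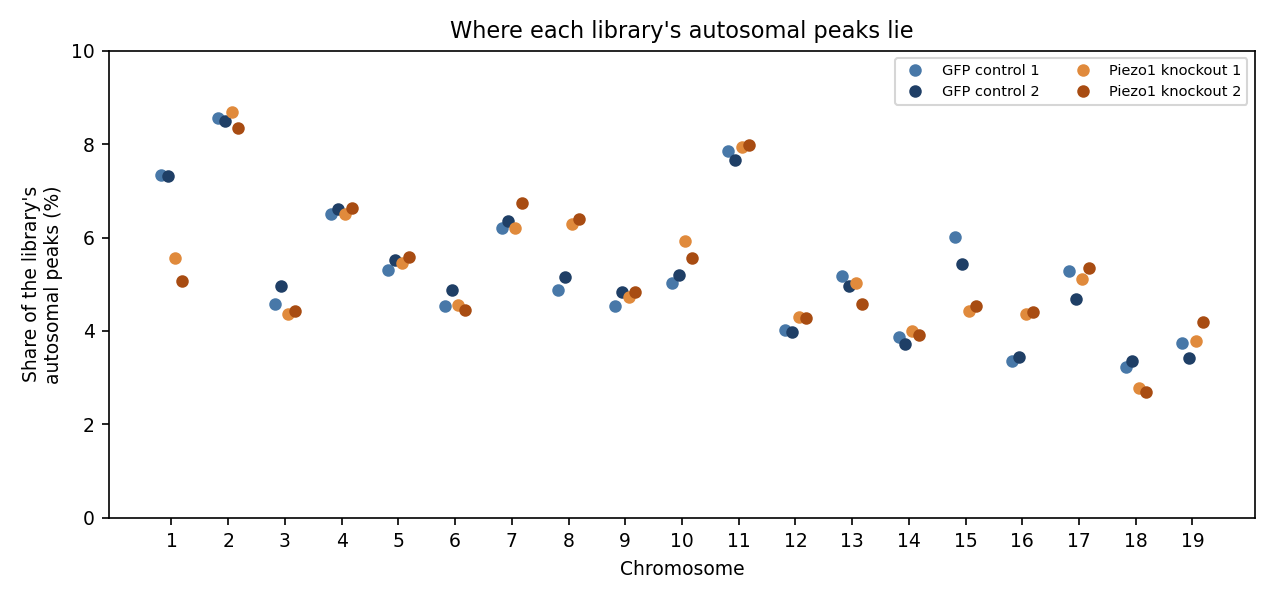
Points give the share of each library's autosomal peaks that lies on each of the 19 autosomes, in percent, 1 point per library. On chromosomes 1 and 15 both knockout points lie under both control points, and on chromosomes 8 and 16 both lie above.

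The promoter windows of RefSeq (300 bases, 250 before and 50 after a start) show what the classes share in sequence. They covered 20085 promoters of 16457 of the 20665 autosomal protein-coding genes, with none from chromosome 18. GC boxes were found in 47.0% of these 20085 promoters, in 72.0% of the 4571 whose start lay in a region of all 4 libraries, in 74.5% of 184 in control-only regions and in 57.5% of 40 in knockout-only regions. The median number of CpG dinucleotides in a window was 14, 24, 22 and 17.5 in the same order. Promoters of regions that ranked higher (186) or lower (107) held a GC box in 68.8% and 71.0% and a median of 24 CpG each. CCAAT boxes were in 49.5% of promoters that ranked higher and 35.5% of those that ranked lower, beside 47.8% of those shared and 38.1% of all. The cyclic AMP response element TGACGTCA was in 6.99% and 3.74%, beside 4.18% and 2.30%, and the AP-1 motif TGANTCA in 4.30% and 7.48%, beside 4.33% and 7.06%. All motifs were searched on both strands, and matches of different motifs could overlap. These shares are descriptions, and a match does not show that a factor binds.

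The RNA of the line itself was available from the 3 static RNA-seq libraries, which are neither GFP nor knockout cells. Genes with a peak at the start in all 4 ATAC libraries had median levels of 38.2, 37.7 and 36.3 CPM (counts per library total, scaled to a common size) in the 3 libraries. Control-only genes had 25.1, 25.2 and 23.1 CPM, and knockout-only genes 19.8, 17.5 and 19.9 CPM. The median of genes with no peak was 0 in each library. Genes whose shared region ranked higher in the knockout had medians of 35.5, 34.9 and 33.2 CPM and those ranked lower 33.6, 36.9 and 32.2 CPM. Genes of the classes that differed between the groups were thus mostly expressed in this line, with at least 1 CPM for 84.5% or more in each class and library. The same share was 95.5% to 95.8% of genes with a peak in all 4 libraries, so it is not particular to these classes. Among all protein-coding genes it was 55.6% to 55.9%. Piezo1 itself had 498, 554 and 380 CPM, while Spsb4 had 0.182, 0.387 and 0.551 CPM, so a peak at a start did not always go with RNA.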

How the data were processed

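ATAC-seq peak lists of 2 GFP control and 2 Piezo1 knockout libraries were used, with the 3 static RNA-seq libraries of the series for context. The submitters' processing notes name Trim Galore 0.6.5, Bowtie2 2.4.2 and MACS2, with the mm10 build. The deposited lists are 1 per library and are labelled as freed of blacklisted regions. Not given in the sources used here are the peak caller's settings, how duplicates were handled and whether reads were shifted to the Tn5 cut. The authors deposited for each peak a fold enrichment, a ratio to the library's local background, and −log10 p and −log10 q values. The authors' enrichment was used to rank peaks within a list, and −log10 values to filter them. Several lines at 1 place (separate summits) were joined, and a region took its highest value.

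RNA values are deposited read counts per gene, made with STAR and HTSeq and with DESeq2 named as well, per the submitters' processing notes. CPM is a count scaled to a common library total, and totals lay between 36150738 and 38491897.

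Gene starts came from the RefSeq promoter table of GRCm38.p6 for 16457 protein-coding genes. The other 4208 have no entry there and, as the gene table holds no strand, were placed by both ends. Among these are Slc7a12, Lrp6, Rbm8a, Stk3, Ncoa3, Foxc2, Dlx5, Col1a1, Tnfrsf11b, Egr1, Ccn2 and Myc. A region counted at their start may thus lie at the far end. Promoters of chromosome 18 were not available, so its genes, such as Egr1, were placed this way. Among genes with a known start, 1.38% had a region at the far end and none at the start. Regions were merged and ranked in Python 3.11.15 with pandas 2.3.3 and numpy 2.4.6, and intervals came from scipy 1.17.1. The merging and calls were tested on simulated peak lists.

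The members and lists were chosen with earlier results of these data known. Named regions are the first 6 at a protein-coding start and the first 6 farther away in each of 4 classes, ordered by the lower percentile of the 2 libraries or by the gap between groups. Members of the channel, YAP/TAZ, AP-1, osteoblast, estrogen and calcium lists in such regions were named too, and Piezo1. Some regions under this rule are not reported here. Other genes were named after their values were seen. Alternatives were a stricter peak filter, equal peak numbers, a stricter overlap, all chromosomes, other ranks, gaps and start distances, and leaving out each library.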

Additional observations from a re-analysis of the deposited data

How the results depend on the processing

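Control-only regions outnumbered knockout-only regions in 10 of 10 settings, and far shared regions ranked lower in the knockout more often than gene-start ones in 16 of 16. Of 132 alternative values, 65 stayed within 1.5 times the count, within the counting interval of the share or, for the difference between groups, on the same side of 0. With equal peak numbers there were 1586 control-only and 995 knockout-only regions, 18.9% and 41.9% of them at gene starts. Leaving out 1 library at a time gave 3824 to 11980 control-only and 524 to 2403 knockout-only regions, 847 to 1014 regions ranked higher and 879 to 1012 ranked lower, and 23.4% to 30.6% of control-only and 24.5% to 51.4% of knockout-only regions at gene starts. Fewer libraries have to satisfy each definition there, which by construction raises most counts. A gap of 10 points gave 756 higher and 751 lower calls, and 30 points gave 128 and 186. Peaks covering 50% of the region gave 164 and 208, and ranks over all merged regions gave 73 and 24. The order of the directions turned with ranks over all merged regions and, narrowly, with the gap of 10 points. It also turned narrowly without GFP replicate 2 (884 higher and 882 lower) and without knockout replicate 2 (1014 and 1012). The share of control-only regions at a gene start was 24.2% with a −log10 q of at least 5, 24.9% with peaks covering 50% of the region, 27.4% within 2500 bases and 18.7% for protein-coding starts, and that of knockout-only regions 35.4% within 2500 bases. Except where the construction shows it, the cause was not tested. The setting without chromosomes 1, 8, 15, 16 and 18, and all alternatives for shares of shared regions and for that difference, were chosen after seeing the data. The counts of regions come from no test. For the difference in the share of regions at a gene start, 10.2 points, equal peak numbers gave 5.51 points and leaving out 1 library 6.31 to 14.1 points. Replicate numbers are shared between the groups, though nothing in the labels pairs them: with a replicate block the difference was again 10.2 points, and the exact two-sided permutation p of 0.5 is the smallest that 2 pairs allow. Depth is unknown, so a missing peak in a shorter list may lie under that library's threshold, and 2 libraries a group limit each comparison.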

Other observations

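The genes with the most control-only regions were listed, beside 10.4% of all regions that were control-only. Assigned to the nearest protein-coding start, 8 control-only and 0 knockout-only regions lay nearest to each of Cd180, Cited2 and Myc, and 7 and 0 nearest to each of Jcad, Thbs1 and Tns3. Around Myc, which encodes a transcription factor of cell growth, 25 and 28 of 38 regions had a peak in GFP replicates 1 and 2, and 12 and 8 in knockout replicates 1 and 2. Around Thbs1, which encodes the matrix protein thrombospondin 1, 12 and 20 of 20 regions had a control peak and 5 and 1 a knockout peak. Both neighbourhoods were picked for their control-only regions, so fewer knockout than control peaks there largely follow from that choice. Over all regions 47.8% and 85.4% had a peak in GFP replicates 1 and 2, and 48.1% and 41.3% in knockout replicates 1 and 2. Col18a1 and Spry2 each had 3 knockout-only and 0 control-only regions. In all, 2183 of 11392 genes with a region nearest to them had a control-only one, 426 a knockout-only one and 120 both. These genes were chosen after their values were seen, genes with wide surroundings hold more regions, and Myc lies on chromosome 15, which held a smaller share of peaks in the knockout. Myc and Thbs1 had 136 ± 5.12 and 1003 ± 265 CPM (SD, n = 3) in static cells.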
